A study of Mus musculus with 6 samples.

Results

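Ptbp1, Ptbp2, Nova1, Nova2, Rbfox1, Rbfox3, Elavl3, Elavl4, Celf3 and Srrm4 encode RNA-binding proteins that set neuronal splicing and mRNA stability. The 10 genes were taken by symbol from a table of 52636 mouse genes, and each matched 1 row. They were followed in 6 RNA-seq libraries of Prominin1-positive cells sorted from E12.5 mouse forebrain and labelled as cortical radial glia. The labels give 3 pools of control embryos and 3 pools of SmadNes embryos, all of mixed CD1, 129/ola and C57BL6 descent. Both genotypes carry 1 floxed and 1 wild-type allele of each of 2 genes (Smad1wt/fl and Smad5wt/fl). Controls have no Cre (Nestin:Cre0/0), and SmadNes embryos have it (Nestin:Cre+/0) under the Nestin promoter, which is active in neural progenitors. The labels do not say how many embryos went into a pool. The pool names SF3, SF4 and SF5_6 each occur once per genotype, so the libraries form 3 pairs.

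The PTB proteins, encoded by Ptbp1 and Ptbp2, bind pyrimidine-rich RNA and mostly repress alternative exons. Ptbp1 is the form of dividing progenitors and Ptbp2 that of young neurons, and Ptbp1 keeps Ptbp2 low by making its transcript skip an exon, which leaves a frame that is degraded. Srrm4 (nSR100) acts the opposite way on many of the same exons and promotes neural microexons. The neuronal Elavl (Hu) proteins bind AU-rich RNA and stabilise it, Nova and Rbfox proteins bind YCAY and GCAUG elements and switch exons of synaptic and cytoskeletal transcripts, and Celf3 belongs to the CUGBP and Elav-like family. Prominin1 (Prom1) is a membrane protein of the apical surface of neural progenitors.

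Library totals ran from 32997423 to 40744672 counts. Values below are TMM-scaled CPM, counts scaled to a common library size, unless said otherwise. The progenitor markers Prom1 (106 to 132 CPM), Sox2 (111 to 173 CPM) and Pax6 (128 to 150 CPM) were present in all 6 libraries. Neuronal transcripts were present as well, with Tubb3, a neuronal tubulin, at 814 to 951 CPM and Dcx, a microtubule protein of migrating neurons, at 935 to 1494 CPM, so the 10 genes were read in a mixture. In such bulk libraries fewer cells of a type and less RNA per cell cannot be told apart. The targeted genes were not lower in SmadNes but higher in all 3 pairs at the level of whole-gene counts, which do not isolate a floxed exon. Smad5 had 287 to 300 CPM in control and 373 to 411 CPM in SmadNes, and Smad1 had 72.8 to 77.8 and 85.7 to 92.9 CPM. In edgeR with the pool name as a block Smad5 differed by log2 0.42 ± 0.03 (SE, adjusted p = 0.00757) and Smad1 by 0.23 ± 0.04 (adjusted p = 0.257). Without the block Smad5 had an adjusted p of 0.965 in edgeR. Every direction between genotypes below therefore rests on the labels, and SmadNes stands for the libraries so labelled.

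All 10 genes passed the filter on low counts, with 385 counts (Rbfox1, SmadNes SF5_6) to 23289 counts (Elavl3, control SF4) per library. To compare different genes, levels were set per kilobase of the union of all annotated exons. That length need not be the length of the transcripts expressed, so the order and the ratios per kilobase below depend on it. Ptbp2, for example, had more CPM than Ptbp1 (means of 468 and 315) but an exon union of 9175 against 4740 bases. By this measure Elavl3 had the highest level at 78.6 ± 8.54 CPM per kb (SD, n = 6 libraries). Ptbp1 followed at 66.4 ± 3.21, Elavl4 at 53.1 ± 4.92 and Ptbp2 at 51.0 ± 2.11 CPM per kb. Srrm4 (38.9 ± 7.36), Celf3 (37.0 ± 3.36) and Nova2 (33.97 ± 2.22 CPM per kb) formed a middle group. Rbfox3 was at 16.3 ± 4.53, Nova1 at 5.50 ± 1.24 and Rbfox1 at 4.97 ± 1.94 CPM per kb. Several neighbours in this order were not separated by their spread. Elavl4 exceeded Ptbp2 in 4 of 6 libraries, Srrm4 exceeded Celf3 in 4 of 6, and Nova1 exceeded Rbfox1 in 2 of 6. Elavl3 exceeded Ptbp1 in 5 of 6 libraries, and Celf3 exceeded Nova2 in 6 of 6, although the ranges of Celf3 and Nova2 overlapped. The ranges of Ptbp1 and Elavl4, of Ptbp2 and Srrm4, of Nova2 and Rbfox3, and of Rbfox3 and Nova1 did not overlap.

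**Figure D1:**
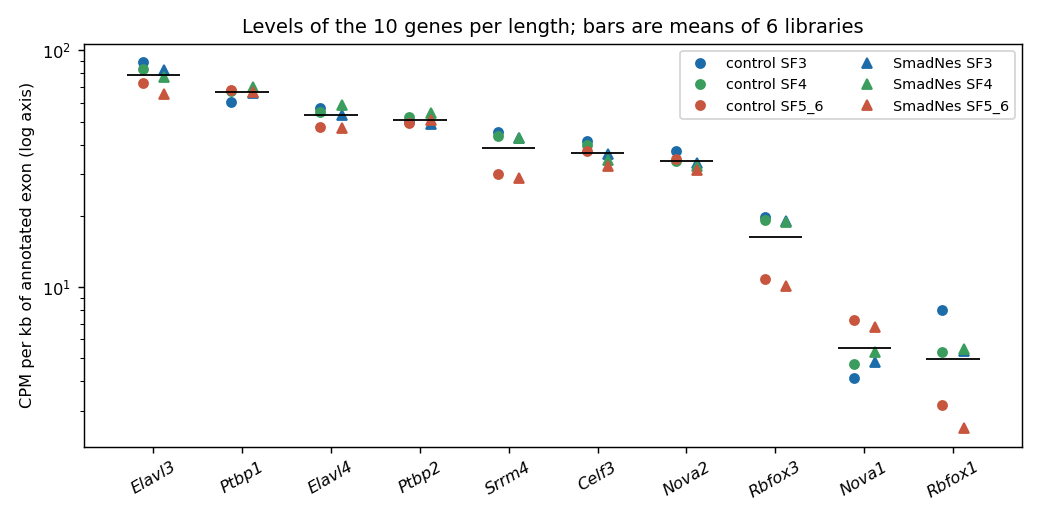
Level of each of the 10 genes in CPM per kilobase of annotated exon (log axis), with circles for control, triangles for SmadNes, colours for the pool names and bars for the mean of 6 libraries. Elavl3 and Ptbp1 are highest, Nova1 and Rbfox1 are lowest, and the SF5_6 points lie apart for Rbfox3, Srrm4, Rbfox1 and Nova1.

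Ptbp1 and Ptbp2 each contain a 34-base coding exon whose skipping shifts the reading frame, since 34 leaves a remainder of 1 when divided by 3. These exons carry the cross-regulation between the PTB proteins, and they are shown because the gene counts cannot tell their inclusion from their skipping. The Ptbp1 exon lies at chr10:79862014-79862047 on the plus strand and the Ptbp2 exon at chr3:119724612-119724645 on the minus strand (GRCm38, GENCODE M21 transcripts). They are printed 5′ to 3′, with capitals for the 26 of 34 positions at which both exons have the same base.
Ptbp1 exon: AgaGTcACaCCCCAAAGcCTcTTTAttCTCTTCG
Ptbp2 exon: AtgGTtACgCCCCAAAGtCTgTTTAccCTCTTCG
In each gene 2 annotated transcripts join the exons on either side of it, and both are annotated as targets of nonsense-mediated decay. The counts used here sum over all transcripts of a gene.

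Ptbp1 (10, 79854427 to 79864771, plus strand) had 286.6, 319.4 and 322.6 CPM in control SF3, SF4 and SF5_6, and 313.4, 331.3 and 316.2 CPM in SmadNes. The control SF3 library was the lowest and the genotypes overlapped. Ptbp2 (3, 119718742 to 119784466, minus strand) had 457.2, 479.8 and 453.2 CPM in control and 449.5, 500.6 and 468.3 CPM in SmadNes, again overlapping. The SmadNes minus control log2 difference was 0.05 ± 0.06 (SE) for Ptbp1 and 0.03 ± 0.06 for Ptbp2 (edgeR quasi-likelihood test, adjusted p = 1 for each). Its 95% intervals, -0.10 to 0.20 and -0.11 to 0.17, bound a genotype difference in either direction to fold changes within 0.926 and 1.15. The ratio of Ptbp2 to Ptbp1 per kilobase was 0.775 ± 0.0492 in control and 0.762 ± 0.0199 in SmadNes (SD, n = 3 each), with a range of 0.726 to 0.824 over the 6 libraries.

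Celf3 (3, 94478295 to 94492198, plus strand) had the smallest genotype p of the 10 genes. It had 226.6, 218.6 and 205.2 CPM in the control pools and 199.1, 187.8 and 177.8 CPM in the SmadNes pools. Each control library was above each SmadNes library, so the groups did not overlap, which held for 4.77% of all genes tested and, with SmadNes lower, for 2.38%. The means were 216.8 ± 10.8 and 188.2 ± 10.6 CPM (SD, n = 3 each). SmadNes was at 0.878, 0.859 and 0.866 of control in the SF3, SF4 and SF5_6 pairs. The fitted log2 difference was -0.20 ± 0.06 (SE; 95% interval -0.36 to -0.05), with an unadjusted p of 0.0164 and an adjusted p of 1 (edgeR without a block, 16869 genes). With the pool name as a block the difference was -0.20 ± 0.03 with an adjusted p of 0.244. DESeq2 with the same block gave an adjusted p of 0.0175, and it was the only one of the 14 alternative fits that called Celf3. That fit called 0.0956% of the genes to which it gave an adjusted p.

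Nova2 (7, 18925888 to 18965319, plus strand), the Nova paralog of the cortex, was the other gene whose genotypes did not overlap. It had 316.1, 286.4 and 290.7 CPM in control and 279.5, 271.5 and 262.3 CPM in SmadNes. The log2 difference was -0.14 ± 0.06 (SE; 95% interval -0.27 to 0.00203), with an unadjusted p of 0.0526 and an adjusted p of 1 in edgeR. With the block it was -0.13 ± 0.04 with an adjusted p of 0.496, and without the control SF3 library it was -0.09. Its paralog Nova1 (12, 46694517 to 46818929, minus strand) did not share this order, with 36.2, 41.1 and 63.6 CPM in control and 42.0, 46.6 and 59.1 CPM in SmadNes. The 2 SF5_6 libraries were the highest for Nova1 in both genotypes. Its genotype difference was 0.07 ± 0.23 (SE; adjusted p = 1, edgeR).

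Elavl3 (9, 22015005 to 22052023, minus strand), the neuronal Hu protein also called HuC, had 614.0, 577.7 and 499.7 CPM in control and 571.6, 532.0 and 452.0 CPM in SmadNes. SmadNes was lower within each pair, while across pairs the groups overlapped because both SF5_6 libraries were low. The log2 difference was -0.12 ± 0.11 (SE) without the block (adjusted p = 1, edgeR) and -0.12 ± 0.03 with it (adjusted p = 0.502). Without the block it was -0.03 when the SmadNes SF5_6 library was left out and -0.21 when the control SF5_6 library was. Elavl4 (4, 110203722 to 110351909, minus strand), or HuD, had 307.9, 294.7 and 255.0 CPM in control and 288.7, 316.4 and 253.2 CPM in SmadNes. Its pairs differed by -0.09, 0.10 and -0.01 on the log2 scale, so they did not share a sign, and the fitted difference was 0.0012 ± 0.11 (SE).

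Srrm4 (5, 116439275 to 116591817, minus strand) had 392.9, 377.7 and 259.7 CPM in control and 371.0, 371.2 and 251.5 CPM in SmadNes. SmadNes minus control was -0.08, -0.03 and -0.05 (log2) in the 3 pairs, whereas both SF5_6 libraries were below the other 4. The genotype difference was -0.05 ± 0.21 (SE) without the block and -0.05 ± 0.03 with it (95% interval -0.13 to 0.02 with the block; edgeR, adjusted p = 1 and 0.841). Rbfox3 (11, 118489762 to 118911597, minus strand), whose protein is the neuronal nuclear antigen NeuN, had 115.0, 112.2 and 62.9 CPM in control and 110.2, 109.6 and 58.9 CPM in SmadNes. Rbfox1 (16, 5885355 to 7411526, plus strand), the least abundant of the 10 per kilobase, had 35.1, 23.4 and 13.9 CPM in control and 23.6, 24.2 and 11.1 CPM in SmadNes. For Rbfox1 control SF3 stood above the other 5 libraries, and the pair differences of -0.57, 0.04 and -0.32 (log2) did not share a sign. The genotype difference was -0.06 ± 0.32 (SE) for Rbfox3 and -0.30 ± 0.41 for Rbfox1 (edgeR, adjusted p = 1 for each). Without the block, leaving out 1 library could turn the sign of all 3 genes, with Srrm4 at 0.06 and Rbfox3 at 0.08 and Rbfox1 at 0.07 without control SF3. With the block the difference was -0.06 ± 0.04 (SE) for Rbfox3 and -0.29 ± 0.11 for Rbfox1 (edgeR, adjusted p = 0.827 and 0.721). All 3 genes stayed negative with the block and 1 pair left out. Those values ran from -0.07 to -0.03 for Srrm4, -0.08 to -0.05 for Rbfox3 and -0.47 to -0.12 for Rbfox1.

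**Figure D2:**
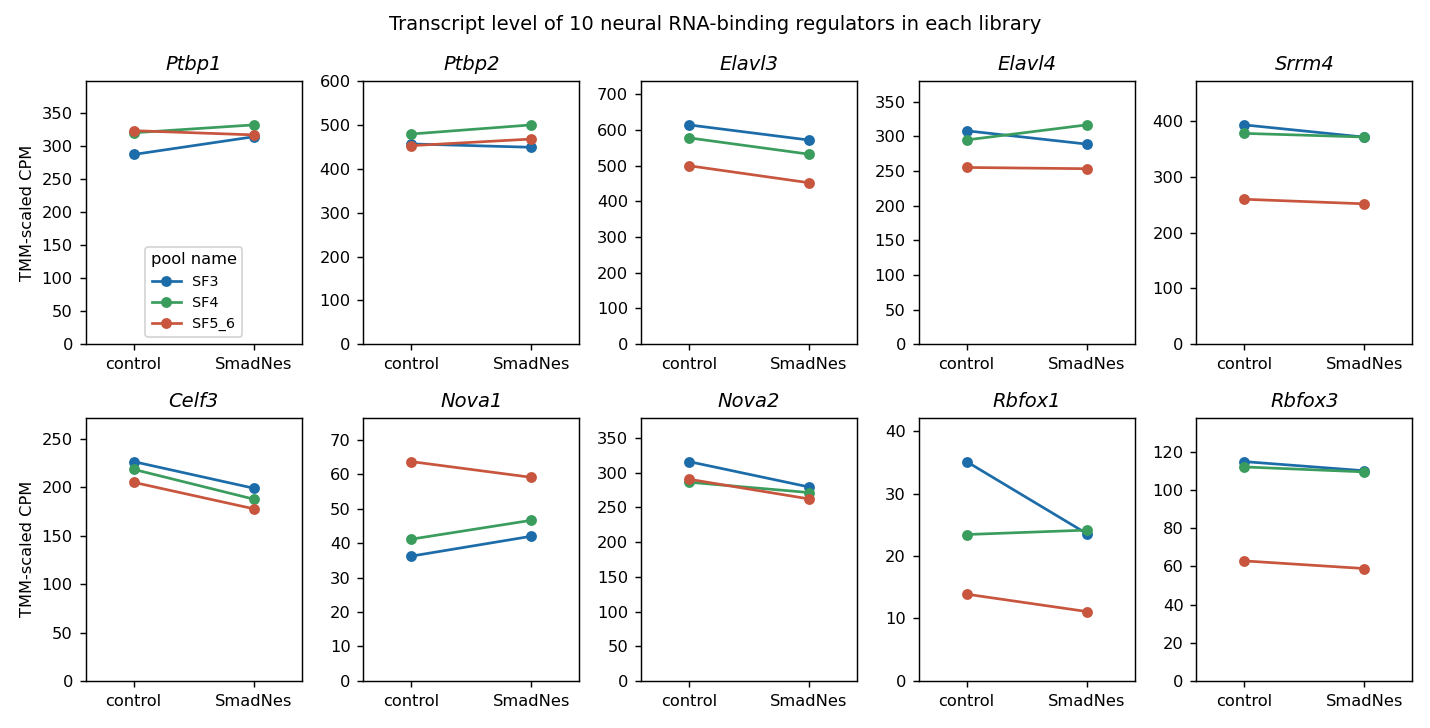
TMM-scaled CPM of each gene in the 6 libraries, with a line joining the control and SmadNes library of 1 pool name and every axis starting at 0. Lines for Celf3 and Nova2 slope down in all 3 pairs with separate groups, and the SF5_6 line lies apart from the others for Rbfox3, Srrm4, Rbfox1, Elavl3, Elavl4 and Nova1.

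Over the 10 genes, edgeR called 0 between the genotypes without a block and 0 with it, against 0% and 0.0237% of the 16869 genes tested. At an unadjusted p below 0.05 there was 1 of the 10 without the block (Celf3) and 4 with it (Celf3, Nova2, Elavl3 and Rbfox1), against 177 and 1051 of all genes. DESeq2 and limma-voom without a block also called 0 of the 10. Celf3, Nova2, Elavl3, Rbfox3 and Srrm4 were lower in SmadNes in all 3 pairs, 5 of 10 genes against 14.3% of all genes, and 0 of the 10 were higher in all pairs. The median log2 difference was -0.06 over the 10 genes and -3.77e-04 over all genes. The summed level of the 20 neuron markers ran from 5811 to 8252 CPM in control and from 5691 to 7162 CPM in SmadNes. Of these 20, 17 had a negative difference and 9 were lower in all 3 pairs. The 14 radial glia markers summed to 2880 to 3321 CPM and 3100 to 3493 CPM. Of these 14, 12 had a positive difference but only 2 were higher in all 3 pairs, against 13.8% of all genes. Some other marker lists had fitted differences of the same sign throughout. The 13 ventral telencephalon and GABA markers all had a negative difference (82.9 to 308 CPM in sum in control, 75.2 to 222 CPM in SmadNes), 11 of them in all 3 pairs. The 9 erythroid markers tested were also all negative, but only 2 were lower in all 3 pairs. The 10 erythroid markers listed summed to 116 to 1126 CPM in control and 123 to 667 CPM in SmadNes. The 10 mesenchyme markers tested were all positive, but 0 were higher in all 3 pairs. The 11 mesenchyme markers listed summed to 469 to 1080 CPM in control and 296 to 1352 CPM in SmadNes. The 8 Cajal-Retzius markers were all positive, 4 of them in all 3 pairs (13.8% of all genes). Their sums did not overlap (1171 to 1219 CPM in control, 1264 to 1612 CPM in SmadNes). The part of these shifts in the differences of Celf3, Nova2 and Elavl3 was not tested.

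Most of these genes varied more with the pool name than with the genotype, as did most genes tested. In the edgeR F test of the pool name with genotype as a term, 6 of the 10 genes were called, against 28.8% of all genes tested. Rbfox1, Rbfox3, Srrm4, Elavl3 and Elavl4 were called and lower in SF5_6 than in the mean of SF3 and SF4, against 13.1% of all genes, and Nova1 was called and higher, against 15.7%. For the same 5 genes both SF5_6 libraries lay below the other 4 (24.8% of all genes), and for Nova1 both lay above them (23.2% of all genes). Each pool name has 2 libraries, 1 per genotype, so these p-values set the pool differences against the residual of the fit with pool name and genotype. No pool name is replicated within a genotype.

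Rbfox3 had the smallest pool p of the 10 genes. Its mean of 60.9 CPM in SF5_6 compared with 113 in SF3 and 111 in SF4, a 1.83-fold difference (log2 -0.88 ± 0.04 SE, adjusted p = 1.05e-05, edgeR F test). Rbfox1 fell furthest, with 13.9 and 11.1 CPM in the SF5_6 libraries against means of 29.4 in SF3 and 23.8 in SF4, or 2.11-fold lower (log2 -1.08 ± 0.12, adjusted p = 6.23e-04). Srrm4 had 256 CPM in SF5_6 against 382 and 374 CPM, which was 1.48-fold lower (log2 -0.56 ± 0.04, adjusted p = 4.10e-05). The Hu genes fell less, Elavl3 by 1.21-fold (log2 -0.27 ± 0.04, adjusted p = 0.00139) and Elavl4 by 1.19-fold (log2 -0.25 ± 0.05, adjusted p = 0.0095). Nova1 rose, with 61.4 CPM in SF5_6 against 39.1 in SF3 and 43.9 in SF4, a 1.49-fold difference (log2 0.57 ± 0.07, adjusted p = 9.43e-04).

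The other 4 genes did not pass the pool test. Celf3 had an adjusted p of 0.0519 with SF5_6 lower by log2 -0.12 ± 0.04, and Nova2, Ptbp1 and Ptbp2 had adjusted p-values of 0.165, 0.181 and 0.143. For these 3 genes SF4 minus SF3 (-0.09, 0.12 and 0.11, log2) was larger in size than the difference of SF5_6 from both (-0.06, 0.03 and -0.03). For the 6 called genes it was smaller, at -0.02 for Rbfox3, -0.03 for Srrm4, 0.03 for Elavl4, -0.10 for Elavl3, 0.16 for Nova1 and -0.28 for Rbfox1. Without the SF5_6 pair 0 of the 10 genes were called in the pool test (edgeR), which then compares SF3 with SF4 only and called 7.39% of all genes tested.

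**Figure D3:**
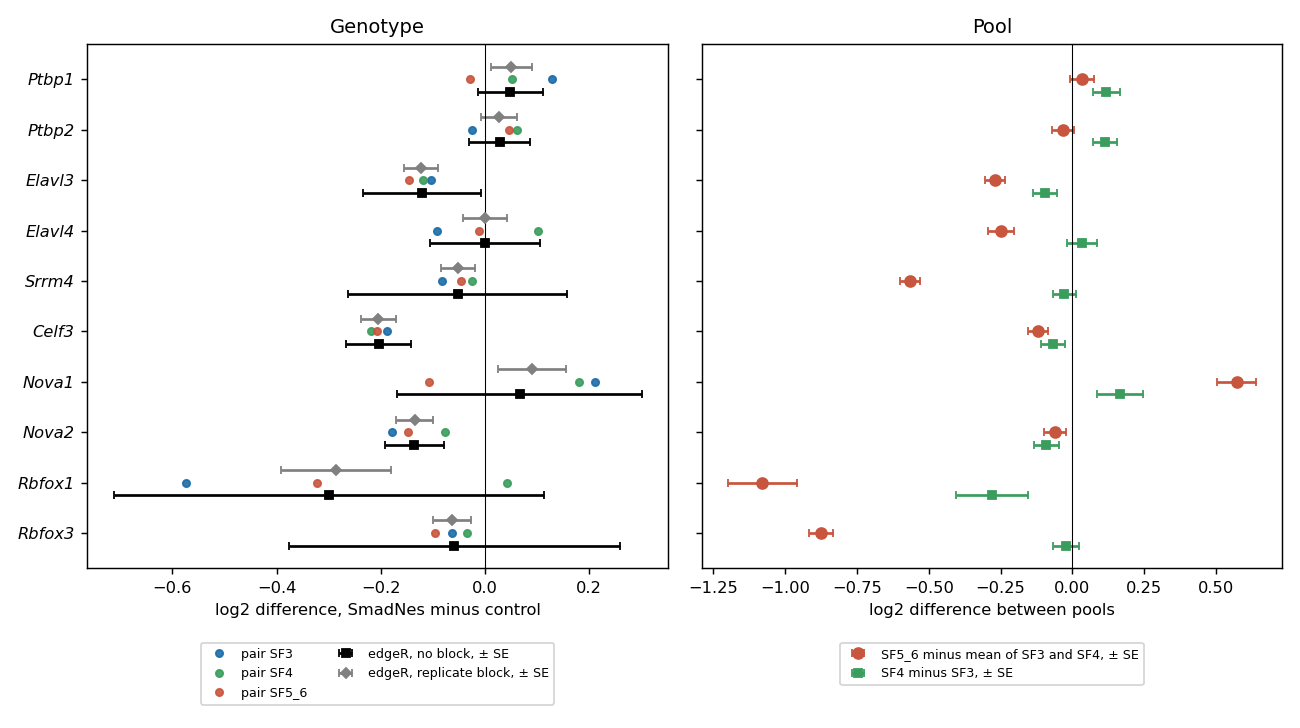
Left, log2 difference SmadNes minus control of each gene as 3 pairs (points) and as the edgeR estimate ± SE without and with the pool name as a block; right, log2 difference between pools ± SE. Celf3 has 3 pairs near -0.2, and in the right panel Rbfox1, Rbfox3, Srrm4, Elavl3 and Elavl4 lie left of 0 in SF5_6 while Nova1 lies right of it.

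The share of each gene's variation across the 6 libraries that went with the pool name or the genotype differed between the genes. The pool name held 99.3% of the sum of squares of log2 CPM for Rbfox3, 98.9% for Srrm4, 91.1% for Nova1, 89.6% for Elavl4, 88.1% for Rbfox1 and 82.3% for Elavl3. For Ptbp2 and Ptbp1, which were not called between pools, it held 81.2% and 60.4%, and the genotype 6.72% and 15.2%. For Celf3 it held 27.2% and the genotype 72.5%, and for Nova2 30.8% and 63.0%. The medians over all 16869 genes were 70.9% for the pool name and 5.78% for the genotype. The pool name has 3 levels and the genotype 2, so the pool name is expected to hold more even where neither has an effect. These shares, like the contrast of SF5_6 with the other pools, describe the 6 libraries and were chosen with the values known.

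The level of Nova1 was closer to that of Nova2 in SF5_6. The ratio of Nova2 to Nova1 per kilobase was 9.12, 7.28 and 4.77 in control SF3, SF4 and SF5_6, and 6.96, 6.09 and 4.64 in SmadNes. SF5_6 had the lowest ratio in both genotypes. The Elavl3 to Elavl4 ratio stayed between 1.32 and 1.56, and the Rbfox3 to Rbfox1 ratio between 2.48 and 4.01.

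Rbfox3, Srrm4 and Elavl3 are the genes lower in SF5_6 that have a single window in RefSeq's promoter table (GRCm38.p6), and these windows are shown for genes that moved together. Each runs from 250 bases before a RefSeq start to 50 after it, on the gene's strand, and for Rbfox3 that start lies inside the gene span given above. The windows lie at chr11:118760992-118761291 for Rbfox3, chr5:116591768-116592067 for Srrm4 and chr9:22051974-22052273 for Elavl3, each on the minus strand. Capitals mark CANNTG, the E-box core that proneural basic helix-loop-helix factors bind, which reads the same on both strands.
Rbfox3: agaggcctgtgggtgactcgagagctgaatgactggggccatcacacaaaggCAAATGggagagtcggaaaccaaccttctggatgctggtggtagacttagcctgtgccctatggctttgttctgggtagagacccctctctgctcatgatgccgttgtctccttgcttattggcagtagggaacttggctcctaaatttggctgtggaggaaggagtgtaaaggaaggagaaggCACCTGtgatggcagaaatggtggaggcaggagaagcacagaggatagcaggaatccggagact
Srrm4: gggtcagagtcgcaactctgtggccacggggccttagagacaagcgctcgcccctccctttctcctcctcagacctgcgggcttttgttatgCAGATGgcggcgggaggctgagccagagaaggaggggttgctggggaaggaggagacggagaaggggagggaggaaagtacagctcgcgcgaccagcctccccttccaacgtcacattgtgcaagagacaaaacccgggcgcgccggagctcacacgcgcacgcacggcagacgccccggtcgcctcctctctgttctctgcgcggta
Elavl3: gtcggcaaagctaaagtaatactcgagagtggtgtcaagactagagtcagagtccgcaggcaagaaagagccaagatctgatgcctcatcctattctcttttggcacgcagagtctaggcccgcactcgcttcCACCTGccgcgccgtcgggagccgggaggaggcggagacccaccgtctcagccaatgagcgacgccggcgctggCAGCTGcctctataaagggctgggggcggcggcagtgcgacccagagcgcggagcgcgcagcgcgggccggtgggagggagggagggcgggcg
Rbfox3 and Elavl3 each hold 2 matches and Srrm4 holds 1, which is CAGATG, the form favoured by Neurog and Neurod proteins. CANNTG occurred in 72.3% of the 32851 windows of the table and CAGATG, searched on both strands and a subset of CANNTG, in 17.2%. A match is a stretch of letters and no binding was measured here.

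Across the 6 libraries, which share 3 pool names, Rbfox3 and Srrm4 ran nearly in parallel (Pearson r of log2 CPM = 0.999). Rbfox1 followed Srrm4 (r = 0.954) and Elavl3 (r = 0.952), and Celf3 followed Nova2 (r = 0.922). Nova1 ran against Elavl3, Elavl4, Rbfox1, Rbfox3 and Srrm4, with r from -0.948 to -0.843. Among 9920 genes that averaged 10 CPM or more, those most like Ptbp1 were Dll1, a Notch ligand (r = 0.991), Sox9, a radial glia transcription factor (0.989), Zbtb44 (0.984) and Qtrt1 (0.981). Those most like Elavl3 were Atat1, a tubulin acetyltransferase (0.996), Fscn1, an actin-bundling protein (0.996), Mapk8ip2, a JNK scaffold (0.996), and Trim46, which organises axonal microtubules (0.996). With 6 libraries high values were common, and 31 genes exceeded an r of 0.95 with Ptbp1, 305 with Elavl3, 712 with Rbfox1, 919 with Rbfox3 and 965 with Srrm4.

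The 10 genes were next set against the neuron markers, whose mean log2 CPM was 7.66, 7.37 and 7.27 in control SF3, SF4 and SF5_6 and 7.44, 7.32 and 7.21 in SmadNes. Subtracting this mean lowered the SD over the 6 libraries from 0.16 to 0.076 for Elavl3 and from 0.60 to 0.47 for Rbfox1 (log2). It lowered the SD from 0.45 to 0.36 for Rbfox3 and from 0.29 to 0.21 for Srrm4. For Ptbp1 it raised the SD from 0.072 to 0.22, for Ptbp2 from 0.059 to 0.18 and for Nova1 from 0.32 to 0.46. The SD was 0.0927 before and 0.0955 after for Nova2, 0.13 and 0.10 for Celf3, and 0.14 and 0.13 for Elavl4. Celf3 minus the neuron mean was 0.17, 0.40 and 0.41 in control and 0.20, 0.23 and 0.27 in SmadNes. The genotypes then overlapped through control SF3, while SmadNes stayed lower in the SF4 and SF5_6 pairs. Ptbp1 had the closest relation to the radial glia mean, with r = 0.925 over the 6 libraries, against -0.838 with the neuron mean.

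**Figure D4:**
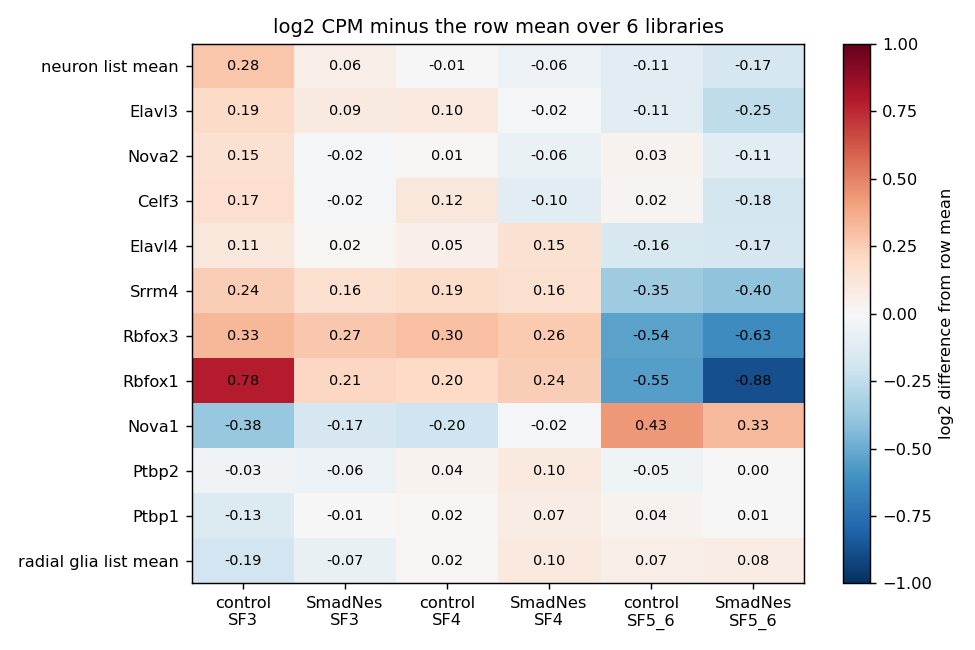
log2 CPM of each gene minus its mean over 6 libraries, by library, between the neuron list mean (top) and the radial glia list mean (bottom), with red for above and blue for below the row mean. Rbfox3, Srrm4 and Rbfox1 are blue in both SF5_6 libraries and Nova1 is red there, while the Ptbp1 and Ptbp2 rows stay pale.

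Other cell markers moved with the pool name. The 13 ventral telencephalon and GABA markers summed to 308 CPM in control SF5_6 and 222 CPM in SmadNes SF5_6, against 75.2 to 139 CPM in the other 4 libraries. Of these 13, 11 were called higher in SF5_6, against 15.7% of all genes. The 9 intermediate progenitor markers summed to 1283 and 1386 CPM in SF5_6 against 1832 to 1965 CPM elsewhere, with 7 of 9 called, all lower (13.1% of all genes were called and lower). Eomes, the defining factor of cortical intermediate progenitors, was lower by log2 -0.70 ± 0.04 (SE), and the cortical neuron factors Neurod2 and Neurod6 by -1.21 ± 0.05 and -1.40 ± 0.08. Neurod2 and Neurod6 had the smallest pool p of the 20 neuron markers, which did not all move the same way. Of these 20, 18 were called, 13 lower and 5 higher in SF5_6, and the median difference was log2 -0.25. Erythroid markers summed to 1126 and 667 CPM in SF5_6 against 116 to 379 CPM elsewhere, and mesenchyme markers to 1080 and 1352 CPM against 296 to 919.5 CPM. The part of these cells in the differences of Rbfox1, Rbfox3, Srrm4, Elavl3, Elavl4 and Nova1 between pools was not tested, and pool, dissection and sort cannot be told apart.

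Closest by family are the 12 tested paralogs of the 10 genes. Between genotypes edgeR called 0 of them (at an unadjusted p below 0.05, 1 without and 2 with the block, against 177 and 1051 of all 16869 genes). Between pools it called 5 (41.7%, against 28.8% of all genes), 4 of them lower in SF5_6. Elavl2 (HuB) was lower with its neuronal relatives (log2 -0.69 ± 0.06 SE, adjusted p = 2.09e-04), as were Celf2 (-0.57 ± 0.07, adjusted p = 9.55e-04), Rbfox2 (-0.31 ± 0.04, adjusted p = 0.00184) and Celf5 (-0.19 ± 0.04, adjusted p = 0.00544). Ptbp3 was higher (0.34 ± 0.04, adjusted p = 0.00119). Rbfox2 was the main Rbfox gene in every library, at 3.27 to 5.13 times Rbfox3 and 9.09 to 20.6 times Rbfox1 per kilobase. Elavl1 (HuR), the ubiquitous Hu protein, stayed between 231 and 243 CPM and had 0.253 to 0.345 of the Elavl3 level per kilobase. Between genotypes Celf4 had the smallest p of the paralogs without the block, with 106, 95.3 and 104 CPM in control and 87.5, 91.1 and 96.1 CPM in SmadNes (log2 -0.15 ± 0.06 SE, unadjusted p = 0.045, adjusted p = 0.608 with the block, edgeR). With the block Celf5 had the smallest, at -0.15 ± 0.04 and an adjusted p of 0.434.

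Of 32 other neural RNA-binding genes tested, 0 were called between genotypes. At an unadjusted p below 0.05 there were 0 without and 3 with the block, against 177 and 1051 of all 16869 genes. Between pools 18 were called (56.2%, against 28.8% of all genes), 6 lower and 12 higher in SF5_6. Lin28b, which blocks let-7 maturation, had 20.9 and 22.1 CPM in SF5_6 against 5.01 to 7.60 CPM elsewhere (log2 1.73 ± 0.09 SE, adjusted p = 1.75e-05). Igf2bp1, Igf2bp2 and Igf2bp3, which bind and stabilise fetal mRNAs, were higher by log2 0.47 ± 0.04, 0.29 ± 0.04 and 0.29 ± 0.04. Of the 28 core splicing factors, 0 were called between genotypes (0 at an unadjusted p below 0.05 in either fit) and 4 between pools (14.3%, against 28.8% of all genes). In all 3 pairs 16 were higher in SmadNes, against 13.8% of all genes, and the median log2 difference of the 28 was small, at 0.03. Hnrnpc had 356 to 360 CPM in control and 363 to 396 CPM in SmadNes (log2 0.08 ± 0.05 SE, unadjusted p = 0.149).

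Regulators of the 10 genes gave 6 pool calls among 10 tested (60%, against 28.8% of all genes), 4 lower and 2 higher in SF5_6. They gave 0 genotype calls. At an unadjusted p below 0.05 there were 0 without and 3 with the block, against 177 and 1051 of all 16869 genes. Rest, the repressor of neuronal genes that silences Srrm4 and is itself spliced by it, had 48.5, 55.3 and 71.7 CPM in control and 53.5, 61.1 and 73.7 CPM in SmadNes. Rest was higher in SF5_6 (log2 0.42 ± 0.04 SE, adjusted p = 4.48e-04), where Srrm4 was lower. Its corepressor Rcor2 was lower there (-0.48 ± 0.04, adjusted p = 8.02e-05). A link of Rest or Rcor2 to the Srrm4 level in these libraries was not tested. A separate list held 22 transcripts known as targets of neural RNA-binding proteins such as Nova2 and the PTB proteins. Of these 22, 16 were called between pools (72.7%, against 28.8% of all genes), 14 of them lower in SF5_6. Between genotypes 0 were called (at an unadjusted p below 0.05, 0 without and 4 with the block, against the same 177 and 1051 of all genes). Among the lower ones were Dab1, the Reelin adaptor spliced by Nova2 (-0.54 ± 0.06, adjusted p = 4.86e-04), and Dlg4, which encodes PSD-95 and is repressed through splicing by the PTB proteins (-0.29 ± 0.04, adjusted p = 5.89e-04). These are whole-gene levels, and the splicing of these targets was not measured.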

How the data were processed

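RNA was read as stranded paired-end libraries from 6 sorted pools. Per the labels and the submitters' processing notes, reads were aligned with STAR 2.5.3a and quantified with RSEM 1.3.0 on GENCODE M15 (GRCm38), and the best pairs by RNA quality were chosen for sequencing. The authors deposited 1 table of expected counts per gene, which holds whole numbers. Genes were filtered with filterByExpr and scaled by TMM, and log2 CPM used a prior count of 1. Genotype (2 groups of 3 pools) was tested with edgeR 4.0.16 (quasi-likelihood, two-sided, Benjamini-Hochberg over 16869 genes, calls below 0.05) without a block, and the pool name with a 2-coefficient F test beside genotype. DESeq2 1.42.0 and limma 3.58.1 (voom) were alternatives, as were no filter, the block and each library or pair left out. Same-named libraries deviated together from their group means (r = 0.472, 0.681 and 0.704 for SF3, SF4 and SF5_6, against -0.554 to -0.074 between names), so the names pair the libraries. Where nothing says that pools came from separate litters, p-values rest only on the spread between these samples. Replicates differed by more than counting noise.

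Named genes are the 10 genes, fixed marker and targeted genes, up to 4 genes with the smallest p per list and test, and the 4 genes most like Ptbp1 and Elavl3. Elavl1 and Celf5 were named after their values were seen. The members and lists were chosen with earlier results of these data known, and the exons, promoter windows, motifs and ratios were chosen after values were seen. Positions come from GENCODE M21 (GRCm38), which matched 52403 of the 52636 genes.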

Additional observations from a re-analysis of the deposited data

How the results depend on the processing

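The names SF3, SF4 and SF5_6 pair the libraries, and the number of genes called between genotypes depended on the fit: 0 in the edgeR fit without a block, 4 with the replicate block, 7 with DESeq2, 13 with DESeq2 and the replicate block, and 1 with limma-voom. Leaving out libraries or pairs gave 0 to 149 calls, with 10, 48 and 149 when the SF3, SF4 or SF5_6 pair was left out under the block, so counts of calls rose with fewer pairs; the cause was not tested. The edgeR block called none of the 10 genes, DESeq2 with the block called Celf3, and Celf3 stayed between -0.25 and -0.16 (log2) in the 14 alternatives. Under the block Celf3 had an adjusted p of 0.345, 0.210 and 0.0541 without the SF3, SF4 and SF5_6 pair. The pool test called 4864 genes, 3161 with a DESeq2 likelihood ratio test and 1250 to 5029 over the left-out libraries and pairs, the lowest without SF5_6. Celf3 passed the pool test with no filter (-0.14) and without the SF4 pair (-0.16).

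Signs turned only for differences near 0 or with a large error. Elavl4 (0.0012) was -8.13e-05 with the block, -0.0035 with DESeq2, -0.0044 with DESeq2 and the block, -3.03e-04 with limma-voom, -0.0035 with no filter and -0.081 to 0.082 with libraries left out. Over all alternatives the genotype differences ran from -0.0029 to 0.091 for Ptbp1, -0.015 to 0.064 for Ptbp2, -0.089 to 0.34 for Nova1, -0.58 to 0.071 for Rbfox1, -0.30 to 0.18 for Rbfox3 and -0.22 to 0.11 for Srrm4, and the SF5_6 differences from -0.031 to 0.092 for Ptbp1 and -0.093 to 0.015 for Ptbp2. Of 140 values for the 10 genes between genotypes, 118 kept sign and side of the threshold, and of 120 between pools 115 did. The 10 genes had 385 to 23289 counts per library, and the number of libraries, 3 per genotype and 2 per pool name, limits the precision.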
